A study of Homo sapiens with 4 samples.

Results

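CDK6, the D-type cyclins and the genes around them that set the phosphorylation of the retinoblastoma protein were measured in 2 human squamous cell carcinoma lines after transfection with miR-489 or miR-504. The members were 10 genes named by symbol, namely CDK6, CDK4, CCND1, CCND2, CCND3, CCNE1, CCNE2, CDKN1B, CDKN2A and RB1, of 30982 gene names on the array. All 10 were found, on 19 probes and 55 spots of each array. FaDu is an established line from a hypopharyngeal carcinoma and HSC3 an established line from a carcinoma of the tongue. Each was transfected with a precursor of miR-489, a precursor of miR-504 or a control miRNA, and RNA was taken after 72 h. RNA of the miRNA transfectant was labelled with Cy5 and RNA of the control transfectant of the same line with Cy3, and both were hybridised to 1 two-colour Agilent oligo-microarray. The groups were FaDu with miR-489, FaDu with miR-504, HSC3 with miR-489 and lastly HSC3 with miR-504, with 1 array each, and values of the 4 arrays are given in this order throughout. What all 4 arrays shared was a control miRNA channel in the same dye. The labels do not say whether both arrays of a line held the same control RNA, and they name neither the arm of a miRNA nor a separate culture for any array.

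In proliferating cells CDK4 and CDK6 bind a D-type cyclin and begin to phosphorylate the retinoblastoma protein, RB1, which in its unphosphorylated form holds back the E2F transcription factors. E-type cyclins with CDK2 complete the phosphorylation and cells enter S phase. The products of CDKN2A and CDKN1B restrain these kinases, the first by binding CDK4 and CDK6 and the second chiefly by binding cyclin E complexes. Loss of CDKN2A and gain of CCND1 are frequent in squamous carcinomas of the head and neck.

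The mature miRNAs are shown because the same members are compared between them. RefSeq (GRCh38.p14) gives the sequences below, with the seed in capitals; for miR-504 both arms are given.
hsa-miR-489-3p: gUGACAUCacauauacggcagc
hsa-miR-504-5p: aGACCCUGgucugcacucuauc
hsa-miR-504-3p: gGGAGUGCagggcaggguuuc
The capitals mark bases 2 to 8. All 3 seeds differ from one another. In the same annotation hsa-miR-489-3p lies at chr7:93483947-93483968 on the minus strand, and the arms of miR-504 lie on the minus strand of chromosome X, at chrX:138667760-138667781 for the 5p arm and chrX:138667724-138667744 for the 3p arm.

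Values are log2 ratios of Cy5 over Cy3 after subtraction of the local background, with the median of each array set to 0, and values below 0 stand for a lower level in the miRNA transfectant than in its control. A value of -1 is a 2-fold lower level. Each gene is described by its brightest probe unless another probe is named. Spots of the same probe varied by an SD of 0.0887 to 0.104 log2 units on an array, which is technical error only. Of the spots, 58.2% to 59.2% had a Cy3 signal well above background and 0 were saturated. Of 8 squamous epithelium markers listed, 7 were on the array and all 7 were well above background on all 4 arrays, KRT5 with a Cy3 signal between 16667 and 33685. Of 4 fibroblast markers, 3 were above background on 0 arrays and COL1A1 on 2 with signals up to 43.8. Both endothelial markers and 2 of 3 leukocyte markers were above background on 0 arrays, while CD79A, a B-cell receptor subunit, was above it on all 4, at 644 to 952.

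CDK6, the kinase partner of the D-type cyclins and a gene that the study had listed from the FaDu miR-489 array, was lower on every array. Its brightest probe, A_24_P166663, gave a log2 ratio of -1.98 on the FaDu miR-489 array, where Cy3 was 3553 and Cy5 was 1348. The FaDu miR-504 array gave -2.32, with Cy3 at 3964.5 and Cy5 at 1247.5. In HSC3 the ratio was -1.79 after miR-489 and -1.44 after miR-504, from Cy3 signals of 6751 and 9829.5 and Cy5 signals of 2937 and 4941. All 4 values thus lay below -1, with the miR-504 array lower in FaDu and the miR-489 array lower in HSC3. Of 15603 genes with both channels well above background, 0.256%, 0.0192%, 0.320% and 0.615% had a ratio below that of CDK6 on the 4 arrays. The share of 0.256% is a description, since the study listed CDK6 from that array for being lower. In limma, with both lines standing as replicates of a miRNA, CDK6 fell by 1.88 ± 0.21 (SE, n = 2 arrays) after miR-504, with an adjusted p of 0.0027. After miR-489 the mean was -1.88 ± 0.21, given as a description because the choice of CDK6 used 1 of its arrays. The miR-504 tests of CDK6 are not wholly free of that choice, since the fit took its spread from all 4 arrays. Both FaDu arrays may also share a control RNA. Since no array had its dyes swapped, any preference of a probe for a dye is part of each ratio against control and cannot be told apart from the miRNA there. It drops out of the difference between the miRNAs.

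**Figure D1:**
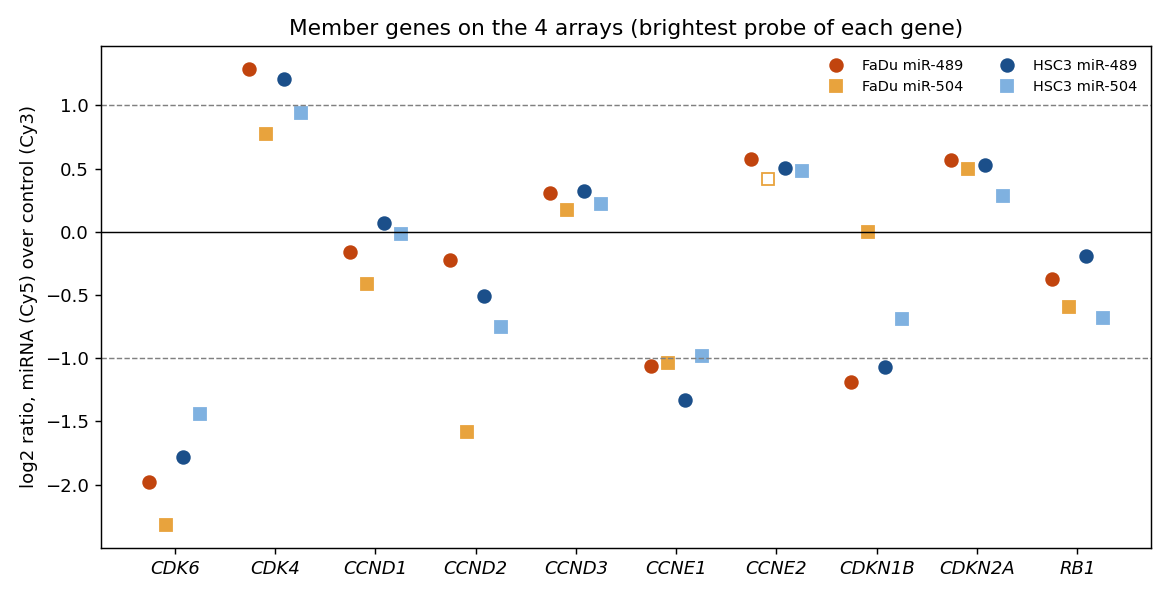
Log2 ratio of the miRNA transfectant (Cy5) over the control transfectant (Cy3) for the brightest probe of each of the 10 member genes, 1 point per array (circles miR-489, squares miR-504; red and orange FaDu, blue HSC3). Dashed lines mark 2-fold; the open square is a probe whose Cy3 signal was not well above background. CDK6 lies between -2.32 and -1.44 on all arrays, while CCND2 and CDKN1B each have a single array apart.

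A second CDK6 probe, A_23_P168651, was dimmer, with Cy3 signals from 133.5 to 379.5. Its listed position spans 48399 bases, so the probe crosses an exon junction, 66269 bases upstream of the brighter probe in the file's coordinates. It gave -0.96, -1.38, -1.14 and -0.77 on the 4 arrays. Both probes put the arrays of FaDu in the same order, and so did both in HSC3, but the dim probe showed a smaller difference on every array. In limma it fell by 1.08 ± 0.16 after miR-504 (adjusted p = 0.0052).

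CDK4, the other kinase partner of the D-type cyclins, was higher on every array. It is measured by 1 probe. Cy3 was 6158, 6496, 5330 and 6870 and Cy5 22536, 17459.5, 18519 and 17943.5, which gave log2 ratios of 1.29, 0.78, 1.21 and 0.94. Both miR-489 arrays were above both miR-504 arrays, a description that was not particular to CDK4. CDK4 rose by 1.25 ± 0.08 after miR-489, a 2.38-fold higher level (limma, adjusted p = 0.00091), and by 0.86 ± 0.08 after miR-504, 1.81-fold (adjusted p = 0.0021). CDK4 and CDK6 therefore moved in opposite directions relative to the array median on the same 4 arrays.

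The D-type cyclins did not move as a group. For CCND1, cyclin D1, the brightest probe, A_23_P202837, was printed as 10 spots and gave -0.16, -0.41, 0.07 and -0.02, with an SD between its spots of 0.0332 to 0.0488. Cy3 for this probe was 4512 to 7838. The probes A_24_P193011 and A_24_P124550 gave 0.18, -0.44, -0.21 and -0.19, and 0.20, -0.19, 0.26 and 0.09. The FaDu miR-504 array was the lowest of the 4 for all 3 probes. None of the 3 passed the limma test after either miRNA; for the brightest probe the mean was -0.04 after miR-489 (95% interval -0.36 to 0.27, adjusted p = 0.79) and -0.22 after miR-504 (-0.53 to 0.10, adjusted p = 0.20). The miR-504 mean passed the test under 3 of the other normalisations, at -0.38 with loess, -0.38 with normexp and loess and -0.39 with total-signal scaling.

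CCND2, cyclin D2, was lower after miR-504, with its lowest value in FaDu. The brightest probe, A_24_P278747, gave -0.22 on the FaDu miR-489 array and -1.58 on the FaDu miR-504 array, from Cy3 signals of 217 and 231. In HSC3 it gave -0.51 and -0.76, from Cy3 signals of 8782 and 8035. The probe A_23_P139881 gave -0.21, -0.85, -0.33 and -0.41, and A_24_P270235 gave 0.34, -0.70, 0.14 and -0.15. With all 3 probes the miR-504 array was below the miR-489 array of the same line, and the FaDu miR-504 array was the lowest of the 4. CCND2 fell by 1.17 ± 0.21 after miR-504 for the brightest probe (limma, adjusted p = 0.0086) and by 0.63 ± 0.12 for A_23_P139881 (adjusted p = 0.012), while A_24_P270235 had -0.42 ± 0.15 (adjusted p = 0.064). Without the FaDu miR-504 array the brightest probe had -0.76 (adjusted p = 0.048). After miR-489 the brightest probe had -0.37 ± 0.21 (adjusted p = 0.18), and passed with normexp and loess at -0.47 (adjusted p = 0.016).

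CCND3, cyclin D3, gave 0.31, 0.18, 0.32 and 0.22 with its brightest probe, A_23_P361773, and thus differed little between arrays. It rose by 0.31 ± 0.08 after miR-489 (limma, adjusted p = 0.019) and had 0.20 ± 0.08 after miR-504 (adjusted p = 0.078). The call after miR-489 was lost without the FaDu miR-489 array (0.32, adjusted p = 0.075) or without the HSC3 miR-489 array (0.31, adjusted p = 0.084), and with loess, total-signal scaling or the deposited log ratios (0.12 to 0.22), while the miR-504 mean passed with normexp (0.21) and without background subtraction (0.25). The dimmer probe A_23_P214464, which crosses a junction and had Cy3 signals of 42.5 to 122, gave -0.15, -0.21, -0.04 and -0.95 and fell by 0.58 ± 0.18 after miR-504 (adjusted p = 0.045). The probes of CCND3 were thus opposite in sign on every array with this processing. On the HSC3 miR-489 array, however, the dim probe was above 0 like the bright one with loess (0.44), with normexp and loess (0.19) and with the deposited log ratios (0.45), which also put its HSC3 miR-504 value at -0.44, -0.23 and -0.23. The level of CCND3 is not settled by these data.

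**Figure D2:**
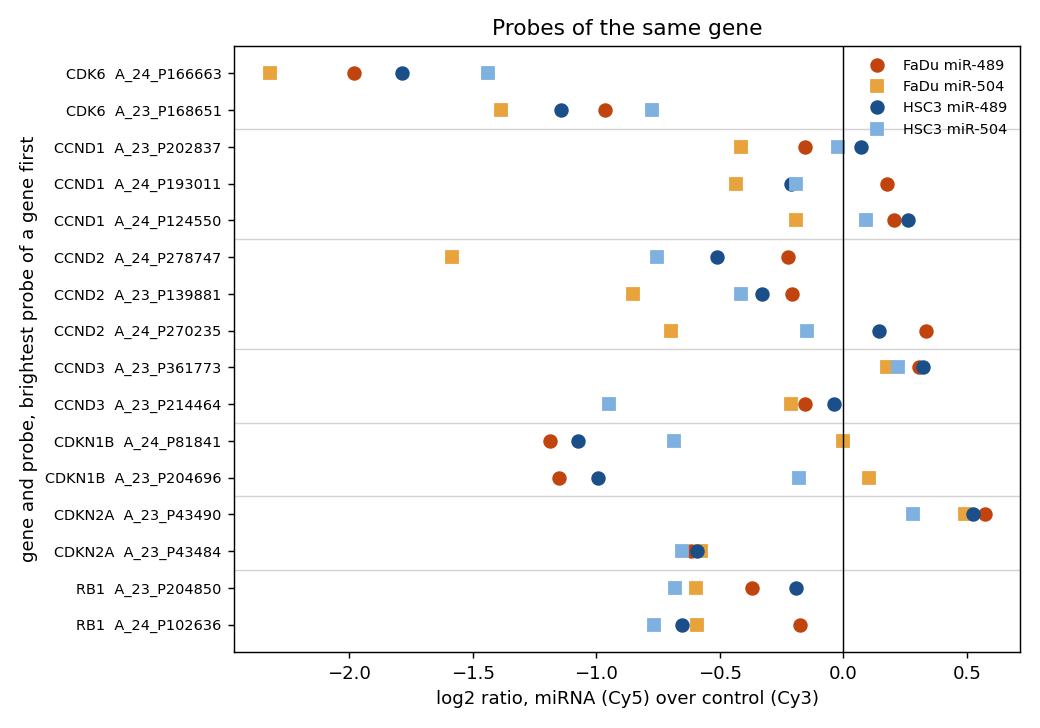
Log2 ratio of the miRNA transfectant over the control transfectant for each probe of the 7 member genes that had several, 1 row per probe with the brightest first and 1 point per array (circles miR-489, squares miR-504; red and orange FaDu, blue HSC3). The probes of CDKN2A and of CCND3 lie on opposite sides of 0 (for CCND3 on the HSC3 miR-489 array not under 3 other normalisations). Both CDKN1B probes lie lower on the miR-489 arrays than on the miR-504 arrays.

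Of the E-type cyclins, which activate CDK2, CCNE1 was lower on every array. It has 1 probe, with Cy3 at 2875.5, 2362.5, 1361.5 and 936.5 and Cy5 at 2061, 1809.5, 812 and 644.5, which gave -1.06, -1.04, -1.33 and -0.99. The values spanned a narrow range and the HSC3 miR-489 array was the lowest. CCNE1 fell by 1.20 ± 0.10 after miR-489 (limma, adjusted p = 0.0011) and by 1.01 ± 0.10 after miR-504 (adjusted p = 0.0020). CCNE2, the other E-type cyclin, was close to the limit of detection, with Cy3 at 49, 30.5, 56.5 and 63. On the FaDu miR-504 array this Cy3 signal was not well above background, so CCNE2 was not in the limma fit of the ratios and its values of 0.58, 0.42, 0.51 and 0.48 are a description. With no filter on dim probes its difference of miR-489 minus miR-504 was 0.09 (limma, adjusted p = 0.99). The values depended on the processing. The FaDu miR-504 value ran from -0.18 without background subtraction to 0.99 with the deposited log ratios, and the latter put CCNE2 past 2-fold on both miR-489 arrays, at 1.08 and 1.09.

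CDKN1B, which encodes the inhibitor p27, was lower on both miR-489 arrays than on both miR-504 arrays. The brightest probe, A_24_P81841, was printed as 10 spots. It gave -1.19 in FaDu and -1.07 in HSC3 after miR-489, against 0.00 in FaDu and -0.69 in HSC3 after miR-504. The second probe, A_23_P204696, gave -1.15 and -0.99 after miR-489 and 0.10 and -0.18 after miR-504, from Cy3 signals of 54 to 83. Arrays of the miRNAs that do not overlap were not particular to CDKN1B. They were also seen with the brightest probes of CDK4, CCND2, CCND3, CCNE1, CCNE2, CDKN2A and RB1. The share over all genes was not counted, so this is a description only and no result about the members. CDKN1B fell by 1.13 ± 0.17 after miR-489 (limma, adjusted p = 0.0043) with the first probe and by 1.07 ± 0.10 (adjusted p = 0.0015) with the second. After miR-504 the means were -0.34 ± 0.17 (adjusted p = 0.15) and -0.04 ± 0.10 (adjusted p = 0.78). Without the FaDu miR-504 array the first probe passed the test after miR-504 as well, at -0.69 (adjusted p = 0.043), as it did with normexp and loess, at -0.40 (adjusted p = 0.041).

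CDKN2A, which encodes the CDK4 and CDK6 inhibitor p16 and, in another reading frame, p14ARF, had probes that disagreed. The brightest, A_23_P43490, gave 0.57, 0.49, 0.53 and 0.28, and A_23_P43484, printed as 10 spots, gave -0.62, -0.57, -0.59 and -0.65. Both probes were bright, with Cy3 between 2175 and 3965, they carry the same accession in the array design, and the listed positions are 259 bases apart. The first rose by 0.55 ± 0.09 after miR-489 (limma, adjusted p = 0.0054) and by 0.39 ± 0.09 after miR-504 (adjusted p = 0.018), while the second fell by 0.60 ± 0.08 (adjusted p = 0.0028) and by 0.61 ± 0.08 (adjusted p = 0.0035). The first lost its call after miR-504 without the FaDu miR-504 array (0.28, adjusted p = 0.19) or the HSC3 miR-504 array (0.49, adjusted p = 0.065), and with loess (0.25, adjusted p = 0.069) or total-signal scaling (0.21, adjusted p = 0.11). No direction can be given for CDKN2A from these probes.

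RB1, the substrate of the kinases, was lower after miR-504. Its brightest probe, A_23_P204850, was printed as 10 spots and gave -0.37, -0.60, -0.19 and -0.68. A_24_P102636, a dim probe across a junction with Cy3 at 36.5 to 55, gave -0.17, -0.59, -0.65 and -0.77. The miR-504 array was the lower of its line with both probes. The sign of the dim probe depended on the processing. The deposited log ratios put it at 0.39, 0.10, 0.05 and -0.41, and loess at 0.22, -0.07, -0.07 and -0.31. RB1 fell by 0.64 ± 0.09 after miR-504 (limma, adjusted p = 0.0042) and by 0.28 ± 0.09 after miR-489 (adjusted p = 0.039). The miR-489 call was lost without any 1 of the 4 arrays, at means from -0.37 to -0.19, and without background subtraction (-0.14, adjusted p = 0.19), and the miR-504 call without the HSC3 miR-504 array (-0.60, adjusted p = 0.054).

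Read as counts, 3 members were at least 2-fold lower on the FaDu miR-489 array (CDK6, CCNE1 and CDKN1B) and 1 was at least 2-fold higher (CDK4). CDK6 had been listed by the study from this same array for being lower, so its place in this count was fixed in advance. Over all genes 8.84% were at least 2-fold lower there and 2.85% at least 2-fold higher. The HSC3 miR-489 array gave the same 4 members, with 8.19% of all genes lower and 2.71% higher. On the FaDu miR-504 array CDK6, CCND2 and CCNE1 were lower and 0 members higher, where 6.0% of all genes were lower and 2.35% higher. On the HSC3 miR-504 array CDK6 alone was lower and 0 members were higher, where 5.12% were lower and 1.97% higher. CCNE1, at -0.99 there, and CDK4, at 0.94, were just short of 2-fold. Of 15603 genes, 239 (1.53%) were at least 2-fold lower on all 4 arrays, and of the members this held for CDK6, which had been listed from 1 of them. In limma 7 of the 9 tested members were called after miR-489, 4 lower (CDK6 counted among them) and 3 higher, where 27.8% of all genes were called lower and 30.1% higher. After miR-504 6 of 9 were called, 4 lower and 2 higher, where 24.3% were called lower and 26.7% higher. The higher calls were CDK4, CCND3 and CDKN2A after miR-489 and CDK4 and CDKN2A after miR-504, by the brightest probe only. For CCND3 and CDKN2A the other probe went the other way, so their direction is not settled. The median over the 9 members was -0.28 after miR-489 and -0.34 after miR-504, beside 0.02 for all 15740 genes tested in each case. A call against control was thus common on these arrays, and the members' counts are no more than a description.

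The direct comparison of the miRNAs asked which members responded differently to miR-489 and miR-504. With the brightest probes 0 of the 9 tested members passed the limma test of the difference, and 4 (CDK4, CCND2, CDKN1B and RB1) had an unadjusted p under 0.05. Among all genes 0.813% were called lower after miR-489 than after miR-504 and 0.318% higher, both at the adjusted threshold. An unadjusted p under 0.05 was common, with 3869 of the 20914 probes tested. CCND2 and CDKN1B had the widest differences. That of CDKN1B was -0.78 (95% interval -1.39 to -0.18, adjusted p = 0.19) with the brightest probe, made of -1.19 in FaDu and -0.38 in HSC3. Its second probe had -1.03 (-1.40 to -0.66, adjusted p = 0.056), made of -1.25 in FaDu and -0.81 in HSC3. This second probe was past the threshold with the mean spot intensity (adjusted p = 0.038), with the deposited log ratios (0.030) and with the cell line as a block (0.039), and its adjusted p lay between 0.030 and 0.58 over the alternatives.

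**Figure D3:**
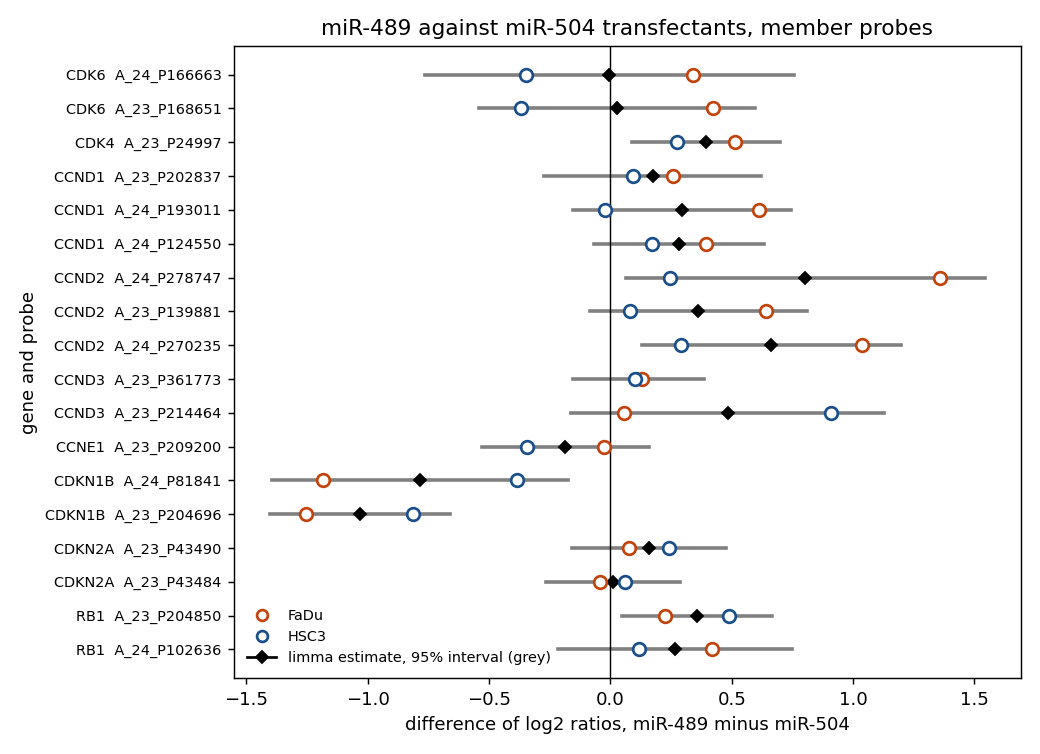
Difference of the log2 ratios, miR-489 minus miR-504, for the 18 member probes tested, with each line's own difference as an open circle (red FaDu, blue HSC3), the limma estimate as a diamond and its 95% interval as a grey bar. Both CDKN1B probes are below 0 in both lines, at -1.25 to -0.38, while the CDK6 probes have FaDu above 0 and HSC3 below 0.

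CDK6 had a difference of 0.00, made of 0.34 in FaDu and -0.35 in HSC3, and a 95% interval of -0.76 to 0.75. These values are a description, since the FaDu miR-489 array from which CDK6 was listed enters them. Its dim probe had the same signs, with 0.42 in FaDu and -0.37 in HSC3. CDK4 was 0.39 higher after miR-489 (0.09 to 0.70, adjusted p = 0.19), by 0.52 in FaDu and by 0.27 in HSC3. CCND2 had 0.80 (0.06 to 1.54, adjusted p = 0.24), by 1.36 in FaDu and 0.24 in HSC3, and RB1 0.36 (0.05 to 0.67, adjusted p = 0.22), by 0.23 and 0.49. These 3 genes were thus higher after miR-489 than after miR-504 in both lines, without passing the test. The same direction in both lines was seen with the brightest probes of CCND1, CCND3, CCNE2 and CDKN2A, so it does not set the 3 apart. CCNE1, at -0.19 (-0.53 to 0.16, adjusted p = 0.53), CCND1, at 0.18 (-0.27 to 0.62), CCND3, at 0.12 (-0.16 to 0.39), and CDKN2A, at 0.16 (-0.16 to 0.48), all had intervals that include 0. Whether the difference between the miRNAs itself differed between the lines could not be tested, since each line had 1 array of each miRNA.

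The Cy3 channel gives the members in the control transfectants, and it was used to compare FaDu with HSC3 over 2 arrays each. Levels were centred on the median of each array, and they compare the lines for 1 probe, not 1 gene with another. If the arrays of a line held the same control RNA, the spread behind these tests is technical only. Of 10 members 6 passed the limma test, CDK6, CCND2 and RB1 lower in FaDu and CCND3, CCNE1 and CDKN1B higher. Over all genes 21.8% were lower in FaDu and 28.0% higher.

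CCND2 showed by far the widest gap of the members between the lines. Its Cy3 signal was 217 and 231 in FaDu and 8782 and 8035 in HSC3, so that HSC3 was 32.2-fold higher, a log2 difference of -5.01 ± 0.18 for FaDu minus HSC3 (adjusted p = 3.9e-05). The other CCND2 probes gave 15.7-fold and 22.1-fold. The FaDu ratios of CCND2 given above therefore rest on signals far dimmer than those of HSC3, though well above background.

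CCND3 ran the other way, with Cy3 at 798.5 and 792 in FaDu and 252 and 290 in HSC3, and was 3.42-fold higher in FaDu (log2 1.78 ± 0.15, adjusted p = 0.00039). Both of its probes gave this direction, the dimmer at 2.74-fold. CCNE1 was 2.69-fold higher in FaDu (log2 1.43 ± 0.28, adjusted p = 0.0074), although its HSC3 arrays lay 0.80 log2 units apart. CDK6 was 1.86-fold higher in HSC3 (-0.90 ± 0.17, adjusted p = 0.0070) and 1.91-fold higher with its dim probe. The control levels of CDK6 and CCND2 were thus higher in HSC3, and those of CCND3 and CCNE1 in FaDu.

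**Figure D4:**
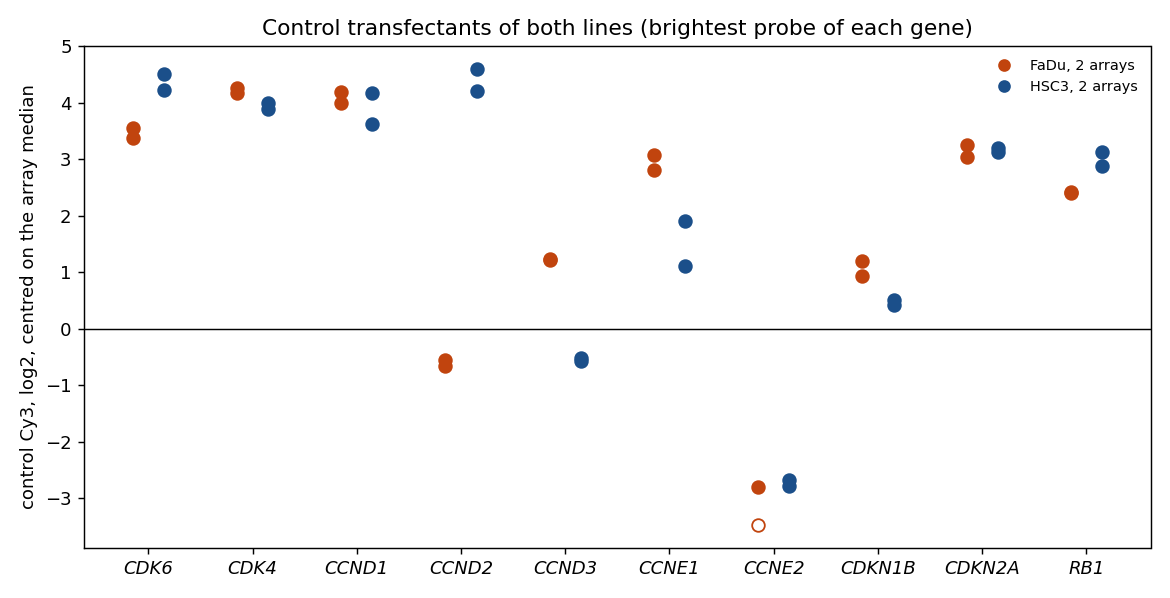
Control-transfectant Cy3 signal of the brightest probe of each member, log2 and centred on the median of the array, for the 2 arrays of FaDu (red) and the 2 of HSC3 (blue); the open circle is not well above background. Lines can be compared within a gene only. CCND2 is 32.2-fold higher in HSC3 and CCND3 3.42-fold higher in FaDu.

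CDKN1B was 1.53-fold higher in FaDu (log2 0.61 ± 0.17, adjusted p = 0.024), which was lost without the FaDu miR-489 array (0.48, adjusted p = 0.16) or the HSC3 miR-504 array (0.57, adjusted p = 0.058). RB1 was 1.51-fold higher in HSC3 with its brightest probe (-0.60 ± 0.16, adjusted p = 0.023), but the dim probe had -0.05 ± 0.17 (adjusted p = 0.82). The RB1 call was lost without the FaDu miR-489, FaDu miR-504 or HSC3 miR-504 array, at -0.60, -0.60 and -0.48. The other 4 members did not pass. CDK4 had 0.28 (95% interval -0.08 to 0.65), CCND1 0.19 (-0.34 to 0.72) and CDKN2A -0.02 (-0.40 to 0.37). CCNE2 had -0.41 (-0.99 to 0.17), which is a description only. It entered this fit through its HSC3 arrays, and its Cy3 signal was not well above background on the FaDu miR-504 array.

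Genes whose 4 ratios were nearest to those of CDK6, by Euclidean distance in log2 units over the 4 arrays and 15602 genes, were LOC145694 at 0.55, TRIM35 at 0.59, THC2282467 at 0.61, the unnamed probe A_24_P461664 at 0.65 and ZNF575 at 0.66. TRIM35, for example, gave -1.73, -1.90, -1.48 and -1.61. All 5 stood below -1 on all 4 arrays, which their choice for nearness to CDK6 made likely. None was a member or a listed gene of the pathway, but 5 of 15602 genes are too few to read this as a result.

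Other genes of the pathway were taken from 5 lists, whose counts stand beside the shares of all genes called, 27.8% lower and 30.1% higher after miR-489 and 24.3% lower and 26.7% higher after miR-504. The CDK inhibitors beside the members, 5 of 5 measured, held 2 called lower and 1 higher after miR-489 and 1 lower and 1 higher after miR-504. CDKN1A, which encodes p21, rose by 0.98 ± 0.11 after miR-489 (limma, adjusted p = 0.0020) and by 0.71 ± 0.11 after miR-504 (adjusted p = 0.0058), with single arrays at 1.13, 0.61, 0.83 and 0.81. CDKN2D, which encodes p19 of the same family as p16, fell by 0.61 ± 0.08 and by 0.86 ± 0.08 (adjusted p = 0.0033 and 0.0020). CDKN2B, encoding p15, had -0.72 and 0.12 in FaDu and 0.30 and 0.40 in HSC3 and passed neither test, and CDKN1C, encoding p57, had means of -0.23 and 0.07 and passed neither. The inhibitors of the p21 and p27 family thus went in different directions after miR-489, CDKN1A up and CDKN1B down.

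Of the pocket proteins and E2F and DP factors, 12 of 12 were measured, with 5 lower and 3 higher after miR-489 and 4 lower and 1 higher after miR-504. E2F6, a repressive E2F, fell by 0.67 ± 0.11 after miR-489 (limma, adjusted p = 0.0056) and had -0.26 ± 0.11 after miR-504 (adjusted p = 0.10). E2F5 fell by 0.44 ± 0.14 after miR-489 (adjusted p = 0.048) and had -0.04 after miR-504. E2F1, the best known activator, passed neither test, with means of 0.10 and -0.17, and nor did E2F8, with 0.18 and -0.14. The list median was -0.09 after miR-489 and -0.16 after miR-504, where that of all genes was 0.02.

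Genes of S phase that E2F factors regulate, 19 of 19 measured, were called higher in 8 and lower in 3 cases after miR-489 and higher in 8 and lower in 5 after miR-504, with list medians of 0.20 and 0.19, beside 0.02 for all genes. CDC6, a loader of the replicative helicase, fell by 0.73 ± 0.08 after miR-489 (limma, adjusted p = 0.0018) and had -0.24 ± 0.08 after miR-504 (adjusted p = 0.050). ORC1, a subunit of the origin recognition complex named ORC1L on the array, rose by 0.87 ± 0.08 after miR-489 and by 0.49 ± 0.08 after miR-504 (adjusted p = 0.0013 and 0.0065). RRM2, the small subunit of ribonucleotide reductase, rose by 0.64 ± 0.13 and by 0.87 ± 0.13 (adjusted p = 0.011 and 0.0053). PCNA, the sliding clamp of DNA polymerase, fell by 0.33 ± 0.08 after miR-504 (adjusted p = 0.023) and had 0.20 ± 0.08 after miR-489 (adjusted p = 0.088). Members of this list therefore did not share a direction.

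**Figure D5:**
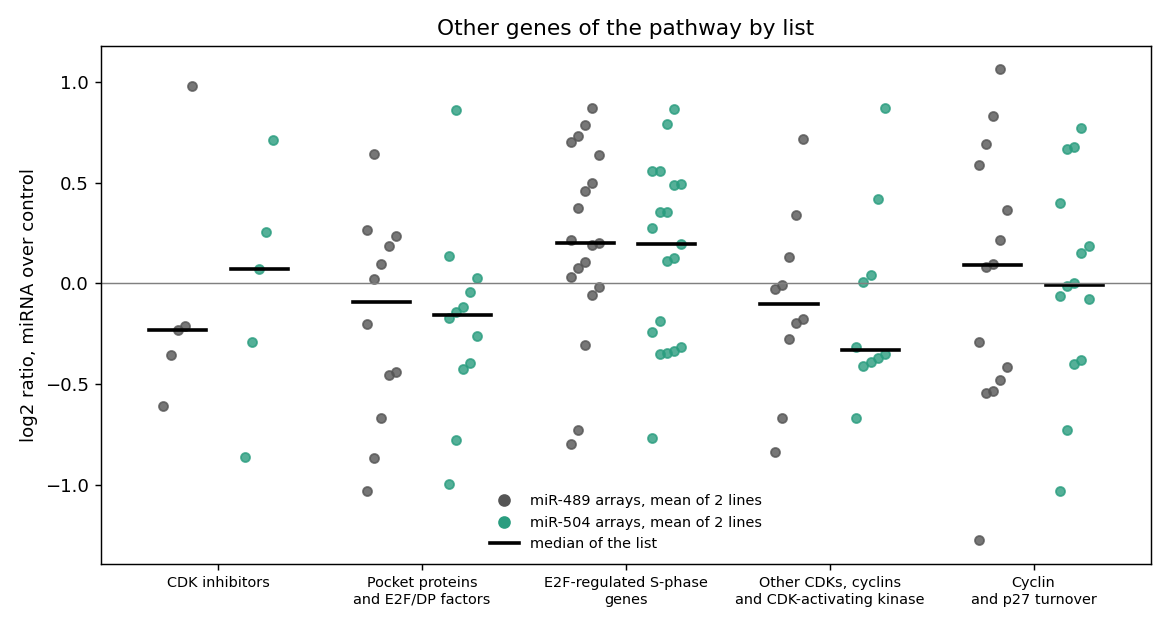
Log2 ratio of the miRNA transfectant over the control transfectant, mean of both lines, for each measured gene of the 5 pathway lists (grey miR-489, green miR-504), with the list median as a black bar. Every list has genes on both sides of 0, and the medians lie between -0.33 and 0.20.

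Other CDKs, cyclins and the CDK-activating kinase had 10 of 11 measured, with 3 lower and 2 higher after miR-489 and 6 lower and 2 higher after miR-504. CDK1, the mitotic kinase named CDC2 on the array, fell by 0.84 ± 0.10 after miR-489 (limma, adjusted p = 0.0026) and by 0.39 ± 0.10 after miR-504 (adjusted p = 0.029). CDK5 rose by 0.72 ± 0.09 and by 0.87 ± 0.09 (adjusted p = 0.0028 and 0.0024). CCNB2, a mitotic cyclin, and WEE1, a kinase that inhibits CDK1, fell after miR-504 by 0.35 ± 0.08 and 0.41 ± 0.08 (adjusted p = 0.017 and 0.011), and had -0.18 and -0.03 after miR-489. The list median was -0.10 after miR-489 and -0.33 after miR-504.

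Genes of cyclin and p27 turnover, 14 of 14 measured, had 6 lower and 5 higher after miR-489 and 4 lower and 4 higher after miR-504. FBXW7, the ubiquitin ligase subunit that recognises cyclin E, fell by 1.27 ± 0.11 after miR-489 and by 1.03 ± 0.11 after miR-504 (limma, adjusted p = 0.0013 and 0.0027), as CCNE1 did. SKP2, the subunit that recognises p27, rose by 0.59 ± 0.12 after miR-489 (adjusted p = 0.011) and had -0.01 ± 0.12 after miR-504 (adjusted p = 0.94), with single arrays at 0.41, -0.13, 0.76 and 0.10. GSK3B, a kinase that marks cyclin D1 for degradation, rose by 1.06 ± 0.11 and by 0.77 ± 0.11 (adjusted p = 0.0016 and 0.0043). CUL4A, a cullin scaffold, fell by 0.41 ± 0.08 after miR-489 (adjusted p = 0.0078) and had 0.00 after miR-504. In the difference of miR-489 minus miR-504, 0 genes of these 5 lists passed the limma test. At an unadjusted p under 0.05 there were 0 of 5 CDK inhibitors, 1 of 12 pocket proteins or factors and 5 of 19 genes of S phase. There were also 2 of 10 other CDKs or cyclins and 2 of 14 turnover genes. Of all 20914 probes tested, 3869 had such a p, so these counts are a description.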

How the data were processed

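Per the labels, 4 two-colour Agilent arrays were made, 1 per condition, from total RNA, with control RNA in Cy3 and miRNA transfectant RNA in Cy5. They lay on 1 slide and had 1 scan time, so neither could be fitted. The authors deposited the intensity of each spot and its local background from Feature Extraction 9.5.3.1, without normalisation, together with a log10 ratio made by that software; the deposited value table was identical to that ratio (largest difference 0). The paper's methods name another scanner and software.

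Local median background was subtracted from median spot intensity, and outlier spots (118 to 137 per array) were left out. Signals below the lowest signal that was well above background were raised to that signal. The log2 ratios were centred on the array median of probes well above background in both channels (medians removed 0.45 to 0.65). Spots of a probe were averaged, and genes were represented by the probe with the highest mean log2 Cy3. A gene counted as lower needed Cy3, and as higher Cy5, well above background. limma was fitted to 20914 probes with Cy3 well above background on all 4 arrays (residual degrees of freedom 2, prior 3.21). For the lines it was fitted to 24119 probes with Cy3 well above background on both arrays of either line. A probe not well above background in the other line gives only a bound there. Benjamini-Hochberg adjustment was at 0.05 over all probes. Scripts were tested on simulated data. The p-values measure the spread between arrays only, and the number of arrays limits precision.

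The lines pair the arrays per the labels; over probes, the deviations of a line after miR-489 and miR-504 correlated at 0.14, and both arrays of a line may share control RNA. The members and lists were chosen with earlier results of these data known. All members were named, and of each list the 2 genes with the lowest and the 2 with the highest mean difference of miR-489 minus miR-504. Alternatives were other background, spot, normalisation and filter choices (normexp offset 50, loess span 0.3), the deposited log10 ratios, a 1.5-fold threshold, a block for the cell line, and fits without 1 array at a time. Software versions were 3.58.1 of limma and 1.17.8 of data.table under R 4.3.3, and 3.10.9 of matplotlib under Python 3.11.15.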

Additional observations from a re-analysis of the deposited data

Results flagged for a closer look

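A few member probes had ratios of opposite sign in FaDu and HSC3 after the same miRNA, with 1 array in each line, so that the difference between the lines was not tested. After miR-489 HSC3 minus FaDu was 0.23 for the CCND1 probe A_23_P202837 (-0.16 in FaDu, 0.07 in HSC3) and -0.39 for the CCND1 probe A_24_P193011 (0.18 and -0.21), which thus disagree on which line was higher. After miR-504 it was 0.28 for the CCND1 probe A_24_P124550 (-0.19 and 0.09) and -0.28 for the CDKN1B probe A_23_P204696 (0.10 and -0.18). Each of these values is small beside those of CDK6, and spots of the same probe varied by an SD of 0.0887 to 0.104.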

How the results depend on the processing

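The counts of members at least 2-fold changed depended on values near the limit. The FaDu miR-489 count went from 4 to 2 without background subtraction, to 3 with normexp and to 5 with the deposited log ratios. The FaDu miR-504 count went from 3 to 2 with normexp and without background subtraction, and to 5 at 1.5-fold. For HSC3 miR-489 the count of 4 became 3 with normexp, without background subtraction, with loess and with normexp and loess. It became 5 with the deposited log ratios. The HSC3 miR-504 count went from 1 to 2 without background subtraction, with the mean spot intensity, with loess, with normexp and loess, with total-signal normalisation and with the deposited log ratios, and to 6 at 1.5-fold. Leaving out 1 array at a time gave 5 to 6 members called after miR-489, 4 to 6 after miR-504, 0 for the difference of the miRNAs and 4 to 6 for the lines; an array left alone in its group was assumed to vary like the others.

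Among values of the brightest probes with a test, directions changed only where no test was passed. The dim RB1 probe A_24_P102636 was called lower after miR-489 (-0.41, limma, adjusted p = 0.047). With the deposited log ratios it was above 0 on both miR-489 arrays, at 0.39 in FaDu and 0.05 in HSC3. CCND1 after miR-489 went from -0.04 to 0.010 with normexp and 0.11 without background subtraction, and to between -0.16 and 0.073 leaving out 1 array. The CDK6 difference of miR-489 minus miR-504 went from -0.0037 to 0.0087 with normexp and 0.0076 without background subtraction, and to between -0.44 and 0.44 leaving out 1 array. The CCND1 difference lay between -0.021 and 0.37, CCND1 in FaDu minus HSC3 between -0.079 and 0.46, and CDKN2A in FaDu minus HSC3 between -0.12 and 0.086, each leaving out 1 array. The cause was not tested. Of 497 single-gene values with a test under an alternative, 24 lost a call and 8 gained one. Of 320 ratios of a member on a single array, which have no test, 195 moved by more than the SD between spots of a probe.

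With the cell line as a replicate block, 7 members were called after miR-489, 6 after miR-504 and 0 for the difference; it changed no call of a brightest member probe. With 1 array per condition, changes on a single array have no replicate check, and CCNE2, the dim CCND3 and RB1 probes and the second CDKN1B probe rest on signals near background.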
